A study of Mus musculus with 9 samples.

Results

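In bone marrow-derived macrophages, 68 genes stood at no more than 0.25 of their resting level after lipopolysaccharide (LPS) and, in LPS-treated cells lacking serum response factor (SRF-KO), at 0.67 to 1.5 of the level in LPS-treated Control cells. They were chosen by their values. Of 22524 genes counted, 11560 passed a filter on low counts, and levels were expressed as CPM, each gene's share of its library's counts after edgeR's TMM scaling. A gene was taken if it was autosomal, had a mean of at least 10 CPM in untreated Control cells, had a Control LPS to Control untreated ratio of at most 0.25, and had an SRF-KO LPS to Control LPS ratio from 0.67 to 1.5. Plau, which met these bounds, was left out by the rule. Both ratios hold the same Control LPS libraries, and all 9 libraries went into the choice, so the members' levels and ratios are given as a description, with no test.

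The cells were primary macrophages grown for 7 days from C57BL/6 bone marrow. There were 3 libraries of Control cells (genotype labelled wild type) left untreated, 3 of Control cells given LPS for 6 h, and 3 of SRF-KO cells given LPS for 6 h. Untreated SRF-KO cells were not analysed here, so a resting effect of the genotype and an effect on the response to LPS cannot be told apart. How the Srf deletion was made, the dose of LPS, and whether replicates came from separate mice or cultures were not stated in the labels, so the spread between replicates may be technical.

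LPS comes from the envelope of Gram-negative bacteria and is sensed by Toll-like receptor 4. It switches macrophages from a resting programme of growth, migration and clearance to the production of cytokines, and many resting genes are turned down while inflammatory genes rise. SRF is a transcription factor that binds the CArG box together with cofactors of the MRTF and TCF families, and it is known for driving actin cytoskeleton genes and immediate-early genes.

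The libraries held 15321839 to 24912173 counts. Srf itself had a mean of 44.3 CPM in untreated Control cells, 57.6 CPM with LPS and 1.05 CPM (0.680 to 1.53 CPM) in SRF-KO cells with LPS. The 10 macrophage markers summed to 18673 to 19374 CPM in untreated, 25421 to 25960 CPM in Control LPS and 24676 to 24940 CPM in SRF-KO LPS libraries, with none at 0. The sums hide opposite differences between the Control LPS and SRF-KO LPS means. Lower in SRF-KO were Fcgr1 (1853 to 84.2 CPM), C1qa (1529 to 124 CPM), Mertk (22.0 to 4.38 CPM) and Cd68 (1409.9 to 553 CPM). Also lower were Adgre1 (3689 to 1701 CPM), Spi1 (958 to 385 CPM) and Itgam (1878 to 1376 CPM). Higher were Lyz2 (8925 to 12296 CPM), Cd14 (3191 to 5356 CPM) and Csf1r (2286 to 2938 CPM). The 8 osteoclast markers summed to 98.6 to 99.9, 81.4 to 86.6 and 271 to 274 CPM in the same order, and the 11 stromal and endothelial markers to 17.9 to 21.1, 73.9 to 82.9 and 35.8 to 39.1 CPM, with Col1a1, Col3a1 and Cxcl12 at 0. Within that list Kdr went from 58.8 to 8.13 CPM and Cdh5 from 5.43 to 1.16 CPM between Control LPS and SRF-KO LPS, and Pdgfrb from 14.8 to 27.4 CPM. The 10 neutrophil markers reached at most 20.5 CPM, in SRF-KO libraries, with Elane at 0, and the 6 myeloid progenitor markers summed to 7.74 to 10.1, 0.388 to 0.484 and 9.41 to 10.1 CPM, with Ctsg and Prtn3 at 0. Lists for B cells, T and NK cells, dendritic cells, mast cells and erythroid cells summed to at most 2.22 CPM. The part of these cells in the members' values was not tested, and fewer cells of a type and less RNA per cell cannot be told apart in bulk RNA. Over the 3 libraries of a group, the Y-linked genes Ddx3y, Uty, Kdm5d and Eif2s3y had 2082, 942, 806 and 2161 counts with LPS in Control and 1, 0, 1 and 4 counts in SRF-KO cells, so genotype and sex of the donors cannot be told apart in that comparison.

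Of 420 autosomal genes that met the first bounds, the 68 members made up 16.2%. Another 312 (74.3%) lay above 1.5 in SRF-KO cells, with a median SRF-KO LPS to Control LPS ratio of 3.77, and 40 (9.52%) lay below 0.67, with a median ratio of 0.405. The members' ratios ran from 0.683 to 1.48 with a median of 1.09. In SRF-KO cells with LPS the members stood 2.88-fold to 139-fold below untreated Control cells (median 5.40-fold), beside a median of 1.83-fold for the genes above the window. All 68 members are protein coding. Every member was lower in all 3 Control LPS and all 3 SRF-KO LPS libraries than in all 3 untreated libraries, a separation that the rule itself sets. Across all 11560 genes, 41.4% were lower without overlap in Control LPS and 39.9% in SRF-KO LPS libraries.

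**Figure D1:**
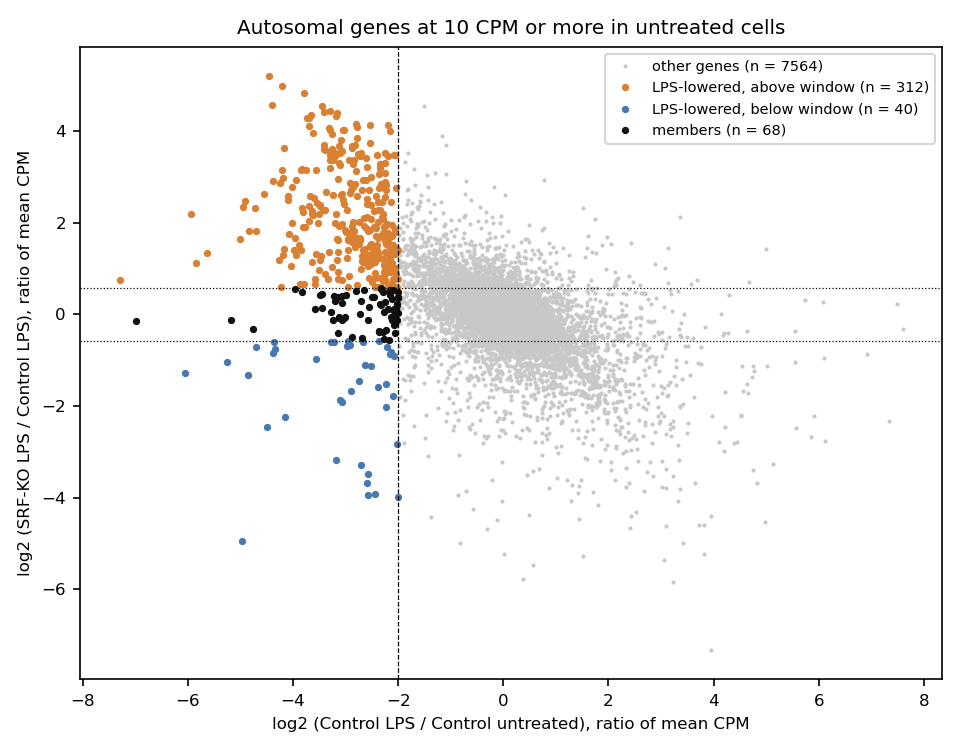
Each point is an autosomal gene with at least 10 CPM in untreated Control cells, placed by its Control LPS to Control untreated ratio (horizontal) and its SRF-KO LPS to Control LPS ratio (vertical), both on log2 axes. The 68 members fill the band between ratios of 0.67 and 1.5 at the left, with 312 genes above it and 40 below it, and both axes share the Control LPS libraries.

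The fall with LPS ran from 4.003-fold to 126-fold, with a median of 5.13-fold. In 22 members it was at least 8-fold and in 30 it was under 5-fold. Untreated levels ran from 10.05 to 1009 CPM (median 44.1 CPM), and after LPS the members had a median of 6.03 CPM in Control and 7.37 CPM in SRF-KO cells. The SRF-KO libraries lay entirely above the Control LPS libraries in 27 of the 68 members, the same share as the 39.7% of all genes, and entirely below them in 11, beside 38.3% of all genes. Counting either direction, 38 members were apart, beside 78.0% of all genes, and the ranges overlapped in the other 30 members. The ratio window that chose the members itself favours overlap, so a lower share apart than among all genes follows from the choice. The shares of all genes are given here and below for scale only, and say nothing further about the members. Leaving out 1 library at a time put 10 to 18 of the genes then chosen entirely below, the 18 without Control LPS replicate 2. With an LPS library left out, ranges rest on fewer values and separate more easily. In 23 members the ratio of means was within 0.9 to 1.1.

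These counts depend on the scaling. TMM factors were 1.18 to 1.19 in untreated, 0.810 to 0.814 in Control LPS and 1.04 in SRF-KO LPS libraries. With library totals alone the median log2 ratio of all genes moved from -0.02 to -0.57 for the LPS contrast and from 0.01 to 0.37 for the SRF-KO contrast, and 118 genes met the rule. These held 39 of the 68 members, and the other 29 moved above the window. On that scale the SRF-KO libraries lay above the Control LPS libraries in 47 of the 68, below in 3 and overlapping in 18, beside 61.2% above and 21.2% below for all genes. Of the 11 members below with TMM, Slc37a2, Zranb3 and Arl11 stayed below, Gna12 and Cdt1 turned to above, and 6 (Adcy3, Rgs1, Inpp4b, Lat2, Eya4 and Phactr2) overlapped. Of the 30 that overlapped with TMM, 18 lay above, Nrp1 and Itga6 among them. Of 26 members with a ratio under 1, 17 had a ratio over 1 with library totals. Both ratio bounds held in every pairing of single libraries for 23 members, of which 18 also met the rule with library totals, among them Abhd15, Bsn, Eya4, Fam83f, Gna12, Inpp4b, Itga6, Nceh1, Nrp1, Otulinl, Phactr2, Plxnc1, Rgs1, Rnf157, Snx24, Tmem37 and Zfp395. Counts also set a limit, since 36 members had under 100 counts in every Control LPS library. A 95% exact interval of the ratio of summed counts, which covers counting error only (counting interval), lay inside the window for 37 members and reached past a bound for 31.

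Members near a bound have close neighbours outside it. At the 10 CPM bound, Ndufaf7 (10.05 CPM) and Adcy3 (10.4 CPM) were inside, and Spry2 (9.72 CPM) outside. At the LPS ratio of 0.25, Scamp5 (0.2498) and 1700025G04Rik (0.249) were inside, and Smarca2 (0.257) and Fam84b (0.258) outside. At the lower SRF-KO bound, Arl11 (0.683) and Zranb3 (0.692) were inside and Wwp1 (0.6696) and Tmem86a (0.665) outside. At the upper bound, Adi1 and Cxcr4 (both 1.48) were inside and Snx8 (1.51) and Nkain1 (1.52) outside. These values are with TMM. With library totals, Spry2, Fam84b, Wwp1 and Tmem86a met the rule.

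The sequence before the start site is shown as a description, since the choice of the members fixed their shared pattern. RefSeq promoter windows of 300 bases (250 before to 50 after the start, GRCm38.p6) matched 53 of the 68 members, with 69 windows. The first promoter below belongs to Cxcr4, the receptor for the chemokine CXCL12, and shows overlapping TATAAA matches, on both strands, in capitals (chr1:128592300-128592549, minus strand). The second belongs to Nceh1, a hydrolase of stored cholesterol esters, with an E-box (CACGTG) and a PU.1 motif (GAGGAAGT, here on the reverse strand) in capitals (chr3:27182754-27183003, plus strand). All sequences are 5′ to 3′ on the gene's strand and end at or before the base ahead of the start.
Cxcr4: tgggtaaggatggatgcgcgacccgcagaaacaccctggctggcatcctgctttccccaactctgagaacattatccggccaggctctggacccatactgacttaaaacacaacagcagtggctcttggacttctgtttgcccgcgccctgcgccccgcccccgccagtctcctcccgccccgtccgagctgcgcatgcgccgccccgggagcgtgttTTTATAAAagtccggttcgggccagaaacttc
Nceh1: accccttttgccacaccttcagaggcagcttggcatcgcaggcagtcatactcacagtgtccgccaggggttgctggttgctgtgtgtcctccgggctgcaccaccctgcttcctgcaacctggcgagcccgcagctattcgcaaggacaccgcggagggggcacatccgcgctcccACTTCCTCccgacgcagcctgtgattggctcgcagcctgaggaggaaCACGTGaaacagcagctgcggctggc
The next 3 stretches show the members whose window holds the AP-1 motif TGANTCA with G at the open position. They lie at chr1:120073850-120073910 (minus strand) for Tmem37, chr9:37255812-37255872 (minus strand) for Slc37a2 and chr10:26772368-26772428 (plus strand) for Arhgap18. The motif, in capitals, begins 103, 107 and 117 bases before the start of the window's transcript. For Arhgap18 that start is internal, since the annotated gene spans chr10:26753421-26918648.
Tmem37: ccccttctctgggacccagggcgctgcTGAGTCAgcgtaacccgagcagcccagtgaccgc
Slc37a2: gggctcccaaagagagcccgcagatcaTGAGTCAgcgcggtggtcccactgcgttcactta
Arhgap18: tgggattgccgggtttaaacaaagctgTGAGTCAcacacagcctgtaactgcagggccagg
The last pair shows an E-box in capitals, 49 bases before the start of Parp1 (chr1:180568815-180568874, plus strand) and 63 bases before that of Pnpla7 (chr2:24975943-24976002, plus strand).
Parp1: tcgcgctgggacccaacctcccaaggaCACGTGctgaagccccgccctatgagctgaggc
Pnpla7: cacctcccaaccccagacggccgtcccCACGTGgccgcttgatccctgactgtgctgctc

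These matches describe letters only. Searched on both strands, the E-box was in 9 of the 69 members' windows, from 7 genes. It was in 11.7% of windows of the genes above the ratio bound of 1.5, 9.96% for all genes kept and 7.15% of all promoters. A gene can have several windows, and overlapping windows, as in Fam214a, can hold the same site. AP-1 (TGANTCA) was in 7.25% of members' windows, 5.42% of windows of all genes kept and 7.81% of all promoters. PU.1 was in 7.25% (5 windows of 4 genes), 3.35% and 3.20%, and TATAAA in 4.35% (3 windows), 6.96% and 13.6%, in the same order. In windows of the genes below 0.67, PU.1 was in 11.9% and TATAAA in 16.7%. The E2F motif (TTTGGCGC, TTTCGCGC or TTTCCCGC) was in 2.90% of members' windows, 13.3% of those of the genes above 1.5, 3.54% of all genes kept and 1.84% of all promoters. The cell cycle homology motif (CHR, TTTGAA) was in 8.70% of members' windows (6 of 69, from 4 genes) and 21.9% of those of the genes above 1.5. It was in 1354 of the 11251 windows of all genes kept and 17.9% of all promoters. No member's window held a CArG box, the motif SRF binds. It was in 1.19% of windows of all genes kept and 1.63% of all promoters. Among the other strongly lowered genes it was in 0.617% of windows of those above 1.5 and 7.14% (3 windows) of those below 0.67. With a share this low over all genes kept, none in 69 windows does not set the members apart from them. Members' windows had a median GC content of 64.0%, beside 60.7% for all genes kept.

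Surface receptors, secreted ligands and channels made up 10 members. They were 4.09-fold to 15.6-fold lower with LPS, and their SRF-KO to Control ratio with LPS had a median of 1.12. Cxcr4 (ENSMUSG00000045382, chr1:128588199-128592293, minus strand, GRCm38), whose promoter is printed above, had the largest difference of them. It stood at 94.4, 93.8 and 99.5 CPM in the untreated libraries, 5.64, 6.84 and 6.01 CPM in the Control LPS libraries and 8.92, 7.97 and 10.4 CPM in the SRF-KO LPS libraries. The fall was 15.6-fold, and the 3 SRF-KO libraries lay above the 3 Control LPS libraries, at a ratio of 1.48 near the upper bound.

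Nrp1 (ENSMUSG00000025810, chr8:128358604-128503363, plus strand), a coreceptor for semaphorins and vascular endothelial growth factor, had 373, 356 and 349 CPM untreated, 44.7, 42.0 and 44.8 CPM with LPS and 43.8, 40.0 and 40.1 CPM with LPS in SRF-KO cells. Its LPS libraries of both genotypes overlapped, 8.19-fold and 8.69-fold below the untreated mean. Itga6, the integrin alpha chain that binds laminin, had 353, 342 and 326, then 42.6, 42.9 and 41.0, then 39.7, 41.3 and 40.3 CPM in the same order, again with overlap and a ratio of 0.959 (counting interval 0.905 to 1.02). Plxnc1, a semaphorin receptor, went from 90.6 ± 2.69 (SD, n = 3) to 18.0 ± 0.389 and 20.6 ± 1.43 CPM, and its SRF-KO libraries lay above the Control LPS libraries.

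Htr2b, a serotonin receptor, had 24.99, 25.1 and 25.2 CPM untreated, 5.56, 5.32 and 6.34 CPM with LPS and 4.64, 5.53 and 6.35 CPM in SRF-KO, where the LPS groups overlapped. Its exons overlap those of Psmd1 on the opposite strand. Lrp5, a Wnt coreceptor, was 4.21-fold lower with LPS and Kcnk13, a potassium channel, 4.09-fold lower, each with overlapping LPS groups and ratios of 0.856 and 1.09. Pdgfa, a platelet-derived growth factor chain, had 46.4, 47.2 and 45.1 CPM untreated, 7.98, 7.05 and 9.44 CPM with LPS and 9.91, 10.49 and 11.7 CPM in SRF-KO cells. The secreted proteins Pdgfa, Fam3c and Metrn (a neurotrophic factor) were each higher in every SRF-KO than in every Control LPS library, at ratios of 1.31, 1.46 and 1.27.

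Related genes lay on other sides of the window. Pdgfc, another platelet-derived growth factor, was 4.08-fold lower with LPS and had an SRF-KO to Control ratio of 0.141, and the stem cell factor gene Kitl was 37.9-fold lower with LPS with a ratio of 0.486. The chemoattractant receptors Gpr183 and C5ar2 had ratios of 0.366 and 0.535, below the window, and the cannabinoid receptor Cnr2 had 2.67, above it. These ratios are with TMM, and C5ar2 met the rule with library totals. Of 70 other G protein-coupled receptor genes kept, 39 were called higher and 25 lower with LPS, and 30 higher and 38 lower in SRF-KO (edgeR quasi-likelihood test, Benjamini-Hochberg adjusted p below 0.05). Over all 11560 genes, 40.8% were called higher and 40.8% lower with LPS, and 39.1% higher and 37.9% lower in SRF-KO. The receptor list had median log2 ratios of 0.75 with LPS and -0.32 in SRF-KO, beside -0.02 and 0.01 for all genes.

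Signalling proteins inside the cell formed a group of 12, with a median ratio of 0.972. The SRF-KO libraries lay above the Control LPS libraries in 4 and below them in 6, beside 39.7% and 38.3% of all genes. All genes were not held to the ratio window, so these shares are not like for like. Of the 6, Arl11 alone stayed below with library totals. Gna12 (ENSMUSG00000000149, chr5:140758408-140830431, minus strand), a G protein alpha subunit that relays receptor signals, had 253, 269 and 274 CPM untreated, 62.2, 58.4 and 61.9 CPM with LPS and 58.0, 53.3 and 56.2 CPM with LPS in SRF-KO cells. The SRF-KO libraries lay just below the Control LPS libraries, without overlap, but above them with library totals. Its exons overlap those of Amz1 on the opposite strand.

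Rgs1, which speeds the switching off of G protein alpha subunits, had 96.9, 84.2 and 81.8 CPM untreated, 16.5, 17.7 and 16.9 CPM with LPS and 12.4, 13.7 and 13.2 CPM in SRF-KO cells. Adcy3, an adenylyl cyclase that makes cyclic AMP, was near the CPM bound at 10.2, 11.4 and 9.72 CPM untreated and had 1.21, 1.31 and 1.75 CPM with LPS and 1.08, 0.967 and 0.964 CPM in SRF-KO. The 3 members of the G protein signalling list, Gna12, Rgs1 and Adcy3, had every SRF-KO library under every Control LPS library with TMM, at ratios of 0.918, 0.771 and 0.706, but not with library totals, where the ratios were 1.18, 0.987 and 0.903. Rgs2 and Rgs18, relatives of Rgs1, were below the window with TMM at 0.613 and 0.247, but Rgs2 met the rule with library totals. Among the 66 other genes of that list, 26 were called higher and 32 lower with LPS, and 28 higher and 27 lower in SRF-KO, with median log2 ratios of -0.23 and 0.11 for the list.

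Lat2, a membrane adaptor of immune receptors, had 275, 266 and 274 CPM untreated, 66.8, 65.3 and 62.5 CPM with LPS and 49.8, 48.8 and 49.0 CPM in SRF-KO. It was lower in every SRF-KO library with TMM, at a ratio of 0.759 (counting interval 0.723 to 0.801), and its exons overlap those of Rfc2 on the opposite strand. Rap2a, a small Ras-like GTPase, went the other way within the window, with 241, 239 and 255 CPM untreated, 40.1, 38.2 and 38.5 CPM with LPS and 58.8, 57.4 and 52.1 CPM in SRF-KO. Its ratio of 1.44 had a counting interval of 1.37 to 1.54, which reaches past the upper bound.

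Arhgap18, a GTPase-activating protein, was 10.9-fold lower with LPS, from 58.5 ± 4.37 to 5.36 ± 0.662 CPM (SD, n = 3), and had 7.35 ± 0.666 CPM in SRF-KO cells, above every Control LPS library. Mtmr10, a myotubularin relative, and Acap3, a GTPase-activating protein for Arf, were also above in every library, at ratios of 1.35 and 1.44. Below were Inpp4b, a phosphoinositide phosphatase, at 0.767, and Arl11, an Arf-like GTPase, at 0.683. Tbc1d16, a GTPase-activating protein for Rab, and the kinase Map4k1 overlapped, at 1.09 and 1.02. Among related genes, Arhgap19 was 30.2-fold lower with LPS and lay above the window at 5.61, while Rasgrp3 was 66.4-fold lower with LPS and lay below it at 0.410.

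**Figure D2:**
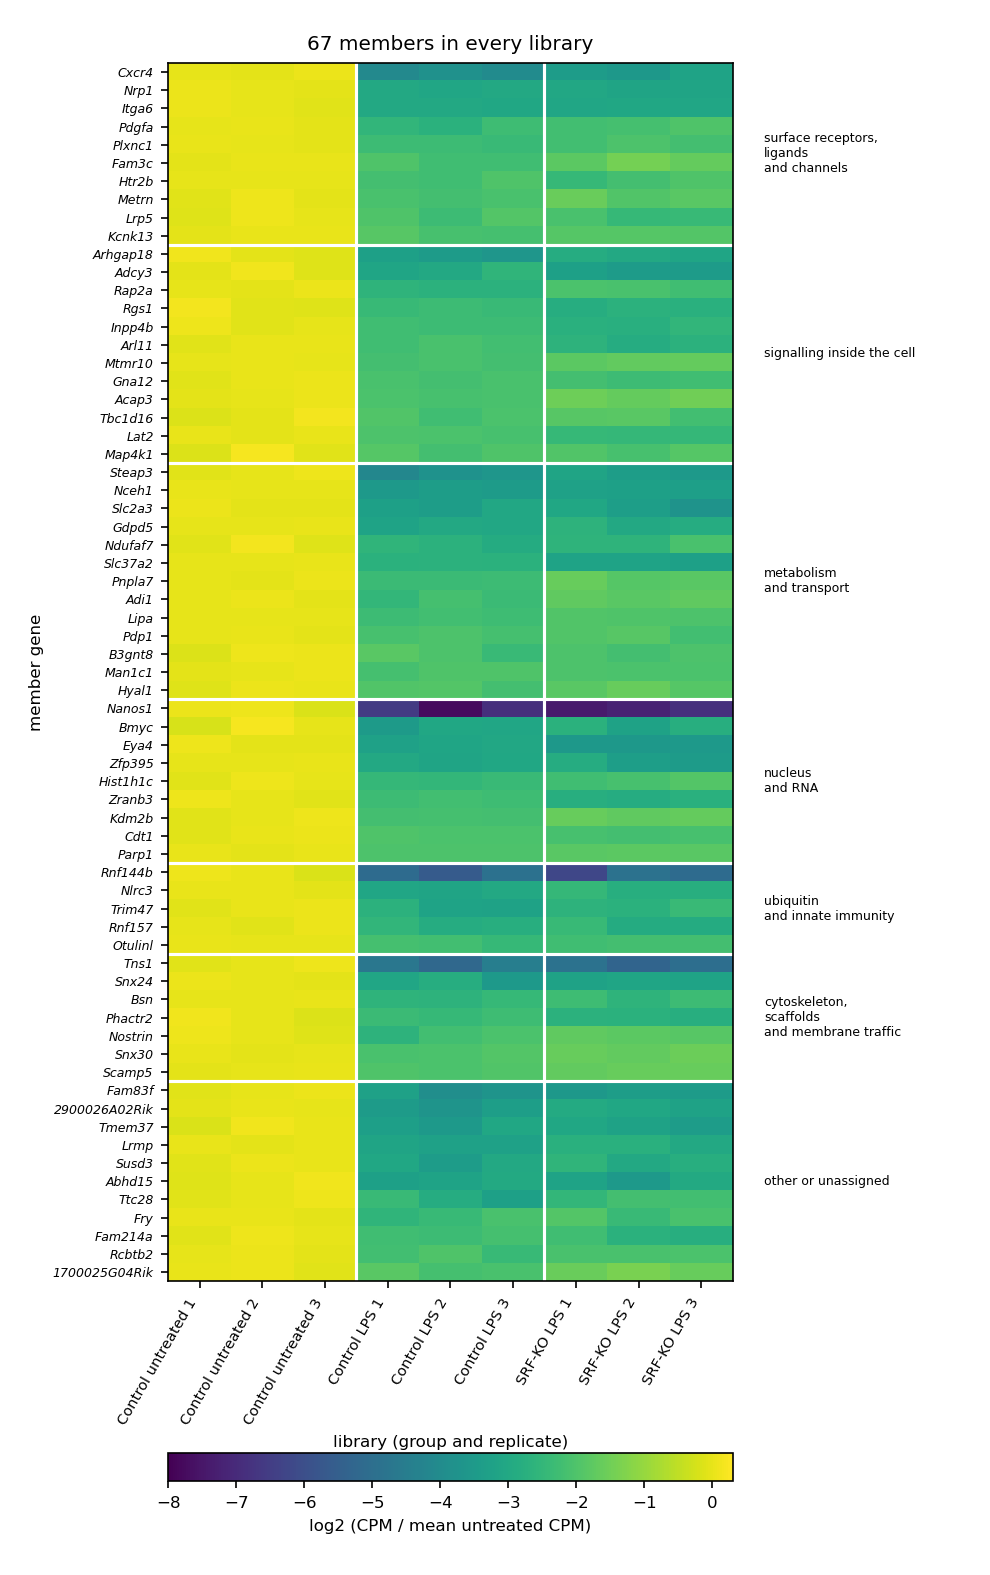
Rows are 67 of the 68 members grouped by role and columns are the 9 libraries, and colour gives log2 of a library's CPM over the gene's untreated mean. Both LPS blocks are darker than the untreated block in every row, by little in many of them, and Nanos1, Rnf144b and Tns1 are the darkest.

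Metabolism and transport was the largest group, with 13 members and a median ratio of 1.18. Lipa (ENSMUSG00000024781, chr19:34492318-34527474, minus strand), the lysosomal acid lipase that frees cholesterol and fatty acids from lipoproteins, was the most abundant member per length. It had 1007, 1014 and 1005 CPM untreated, 205, 217 and 210.0 CPM with LPS and 258, 257 and 248 CPM in SRF-KO, where every library was above the Control LPS libraries. Nceh1, which acts on cholesterol esters outside the lysosome, had 343, 331 and 330.4 CPM untreated, 29.2, 32.2 and 31.1 CPM with LPS and 35.1, 34.1 and 33.4 CPM in SRF-KO. Its Control LPS mean was 10.9-fold and its SRF-KO LPS mean 9.79-fold below the untreated Control mean. Pnpla7, a lysophospholipase, was 5.02-fold lower with LPS and had a ratio of 1.47.

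All 3 stand on the list of cholesterol efflux and lipid breakdown genes, where 21 of the 59 others were called higher and 31 lower with LPS, and 19 higher and 28 lower in SRF-KO. That list's medians were -0.24 and -0.15. Acsl3, an acyl-CoA synthetase, was its gene above the window, at a ratio of 3.81. Among the 72 other lysosomal genes, 21 were called higher and 43 lower with LPS and 17 higher and 47 lower in SRF-KO, with medians of -0.30 and -0.41. Of 24 cholesterol synthesis genes, none was a member, 20 were called lower with LPS and 23 higher in SRF-KO, with medians of -0.67 and 2.02.

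Slc37a2 (ENSMUSG00000032122, chr9:37227585-37255738, minus strand), a sugar-phosphate exchanger of the endoplasmic reticulum, had 837, 841 and 852 CPM untreated, 130.4, 131 and 129 CPM with LPS and 93.1, 93.1 and 87.0 CPM in SRF-KO. Its libraries hardly varied within a group, and every SRF-KO library was below every Control LPS library, at a ratio of 0.698 (counting interval 0.676 to 0.728). Steap3, an endosomal iron reductase, had 75.1, 77.9 and 82.7 CPM untreated, 4.43, 5.74 and 6.34 CPM with LPS and 8.74, 7.51 and 6.80 CPM in SRF-KO, a fall of 14.3-fold with the SRF-KO libraries above. Slc2a3, a glucose transporter, had 20.6, 19.1 and 19.3 CPM untreated, 2.01, 1.87 and 2.39 CPM with LPS and 2.34, 1.93 and 1.47 CPM in SRF-KO, with overlap. Among 233 other solute carrier and channel genes, 100 were called higher and 102 lower with LPS and 105 higher and 85 lower in SRF-KO, with medians of -0.05 and 0.16, and the transporter Slco2b1 lay far below the window at 0.0323.

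Man1c1, a Golgi mannosidase, had the ratio closest to 1 in this group, with 121, 124 and 131 CPM untreated, 28.4, 31.3 and 31.7 CPM with LPS and 31.1, 30.2 and 30.2 CPM in SRF-KO. The LPS groups overlapped at a ratio of 1.00 (counting interval 0.928 to 1.07). B3gnt8, which extends Golgi glycans, overlapped too at 0.990, as did Pdp1, the phosphatase that activates pyruvate dehydrogenase, at 1.06 and Ndufaf7, an assembly factor of respiratory complex I, at 1.23. Gdpd5, a glycerophosphodiesterase, Adi1, an enzyme of methionine salvage, and Hyal1, a hyaluronidase, were above in every SRF-KO library, at 1.19, 1.48 and 1.18. Hyal1 shares exon sequence on the same strand with Hyal3, so its count is uncertain.

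The nucleus and RNA group of 9 held the largest fall of all. Nanos1 (ENSMUSG00000072437, chr19:60755987-60759914, plus strand), an RNA-binding repressor of translation, had 47.6, 48.0 and 40.3 CPM untreated, 0.483, 0.207 and 0.388 CPM with LPS and 0.270, 0.310 and 0.397 CPM in SRF-KO. Both LPS groups overlapped at 126-fold and 139-fold below untreated, but these levels rest on 3 to 8 counts a library, and the counting interval of the ratio ran from 0.444 to 1.88. Bmyc, a relative of Myc, and the zinc finger gene Zfp395 also overlapped, with falls of 9.15-fold and 8.36-fold and ratios of 1.23 and 0.914. Eya4, a transcriptional coactivator with phosphatase activity, was 8.83-fold lower with LPS and was lower in every SRF-KO library at 0.753.

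Parp1 (ENSMUSG00000026496, chr1:180568924-180601254, plus strand), which adds ADP-ribose chains at DNA breaks, had 199.7, 193 and 198 CPM untreated, 48.4, 48.9 and 48.6 CPM with LPS and 56.1, 57.0 and 56.0 CPM in SRF-KO. The SRF-KO libraries lay above the Control LPS libraries, yet 3.49-fold below untreated. Cdt1, which licenses replication origins by loading the MCM helicase, had 79.6, 85.4 and 87.0 CPM untreated, 21.2, 20.3 and 20.4 CPM with LPS and 19.6, 18.3 and 19.4 CPM in SRF-KO. It was lower in every SRF-KO library with TMM (log2 ratio -0.11) and higher in every one with library totals (log2 ratio 0.24). Zranb3, which remodels stalled replication forks, was lower as well at 0.692, while the linker histone Hist1h1c and the histone demethylase Kdm2b were higher in every SRF-KO library, at 1.30 and 1.42.

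Lists of replication, mitosis and repair genes held 2 of the 68 members (2.94%), Cdt1 and Parp1, beside 186 of all 11560 genes kept (1.61%). All functional lists together held 25 members, and the other 43, Zranb3 among them, were on no list. The replication, mitosis and repair lists held 99 of the 312 genes above the window (31.7%) and none of the 40 below it. Mcm5, a subunit of the helicase that Cdt1 loads, was 6.24-fold lower with LPS and had an SRF-KO to Control ratio of 4.33, beside 0.926 for Cdt1. Mcm5 was taken from the genes above the window, so it had to differ from Cdt1. With library totals alone, the replication genes Mcm6 and Pcna met the rule, as did Cdt1. The repair genes Msh6 and Brca1 had ratios of 2.10 and 4.76, beside 1.16 for Parp1, and the division markers Mki67 and Top2a had 11.5 and 12.96. Of 62 other replication genes, 61 were called lower with LPS, and 53 were called higher and 5 lower in SRF-KO, with medians of -2.51 and 1.501. Of 67 mitosis genes, 66 were called lower with LPS and 66 higher in SRF-KO, with medians of -3.03 and 3.52, and none was a member. These calls share the Control LPS libraries.

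**Figure D3:**
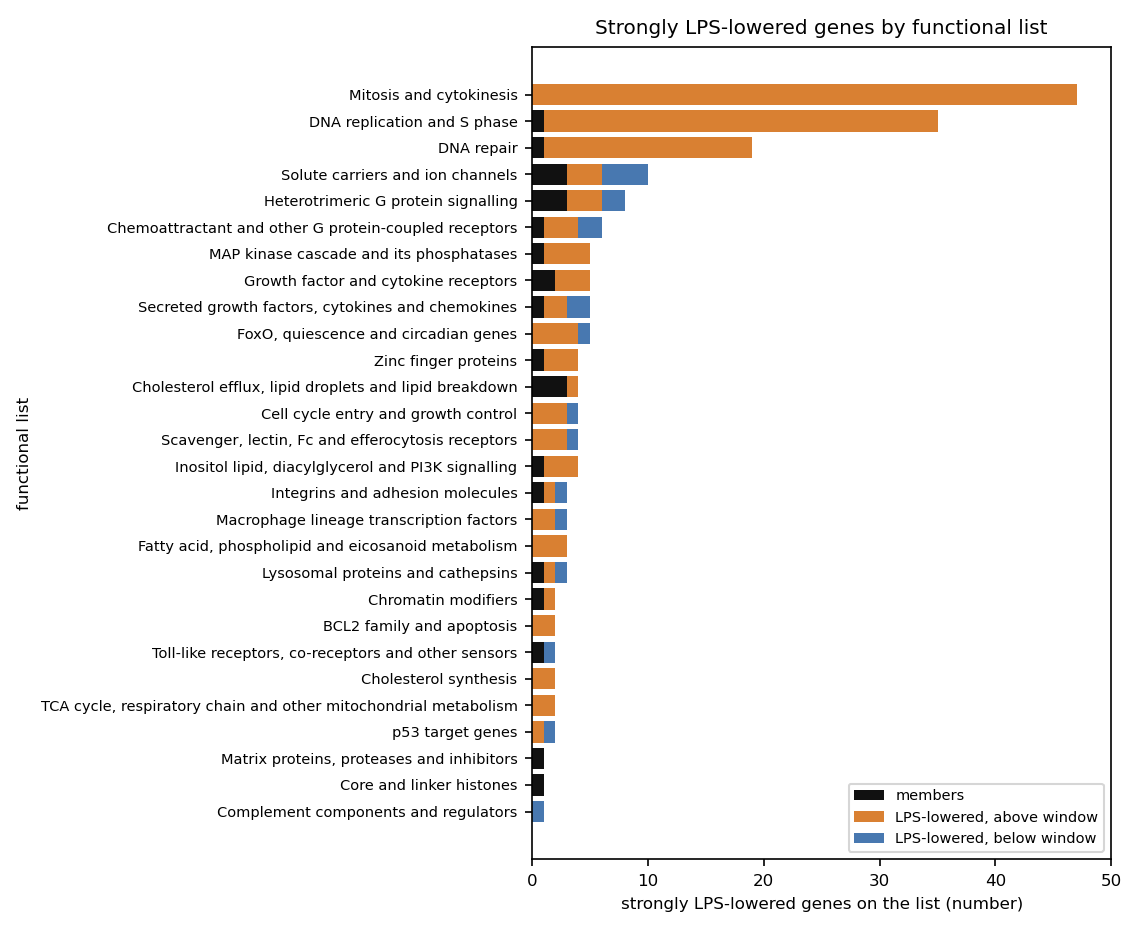
Bars count the strongly LPS-lowered genes on functional lists that hold at least 1, split into members, genes above the window and genes below it. The mitosis list has 47 genes above and no member, the replication list 34 above and 1 member, and no list shown holds more than 3 members. Of the members, 43 are on no functional list.

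Ubiquitin and innate immunity made up 6 members, of which 5 had overlapping LPS groups. Over all genes the LPS groups were apart in 78.0%, and the ratio window itself favours overlap among members. Rnf144b, a ubiquitin ligase, had 14.7, 14.1 and 12.3 CPM untreated, 0.403, 0.277 and 0.453 CPM with LPS and 0.180, 0.464 and 0.397 CPM in SRF-KO, at 4 to 12 counts in each LPS library. Otulinl, a relative of the deubiquitinase OTULIN, had 129, 126 and 124.9 CPM untreated, 28.4, 27.2 and 23.1 CPM with LPS and 26.5, 27.8 and 27.9 CPM in SRF-KO. The LPS groups of both genotypes overlapped at a ratio of 1.04.

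The ubiquitin ligases Trim47 and Rnf157 were 7.94-fold and 6.58-fold lower with LPS, also with overlap. Trim47 shares exon sequence with Trim65 on the same strand, so its count is uncertain. Nlrc3, an NLR protein known as a brake on innate signalling, had 34.9, 35.3 and 33.5 CPM untreated, 4.11, 3.87 and 4.33 CPM with LPS and 6.26, 5.03 and 4.93 CPM in SRF-KO, and alone in the group had every SRF-KO library above. Its relative Nlrp1b lay below the window at 0.268. Among the 43 other Toll-like receptor and sensor genes, 33 were called higher and 8 lower with LPS, and 7 higher and 30 lower in SRF-KO, with medians of 1.28 and -0.80.

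Cytoskeletal, scaffold and membrane traffic genes made up 7 members. Tns1 (ENSMUSG00000055322, chr1:73910231-74124449, minus strand), a tensin that links integrins to actin, had 53.1 ± 2.81 CPM untreated (SD, n = 3), 2.01, 1.45 and 2.46 CPM with LPS and 1.80, 1.32 and 1.64 CPM in SRF-KO. It was 26.9-fold lower with LPS, and the LPS groups overlapped at a ratio of 0.804. Snx24, a sorting nexin, and Bsn, a scaffold of the presynaptic zone in neurons, overlapped at 0.962 and 1.12, and Phactr2, a protein of the family that binds actin and protein phosphatase 1, was lower in every SRF-KO library at 0.778. Nostrin, which moves nitric oxide synthase, the sorting nexin Snx30 and Scamp5, a secretory carrier membrane protein, were higher in every SRF-KO library at 1.41, 1.30 and 1.28. None of the 31 known cytoskeletal SRF targets was among the 420 strongly lowered genes. With LPS, 18 of those were called higher and 10 lower, and in SRF-KO 7 higher and 21 lower, with medians of 0.32 and -0.69.

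The last 11 members have less settled roles or were not placed in a group above. Fam83f, 2900026A02Rik, Tmem37, Lrmp, Susd3 and Abhd15 were 8.73-fold to 12.03-fold lower with LPS. Tmem37 had 34.6, 42.6 and 39.9 CPM untreated, 3.95, 3.46 and 4.72 CPM with LPS and 4.69, 4.22 and 3.63 CPM in SRF-KO, with overlap. Ttc28, Fry, Fam214a, Rcbtb2 and 1700025G04Rik were 4.01-fold to 6.98-fold lower. In this group 2900026A02Rik, Lrmp, Susd3 and 1700025G04Rik had every SRF-KO library above, at 1.35, 1.33, 1.29 and 1.40, and the other 7 overlapped.

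**Figure D4:**
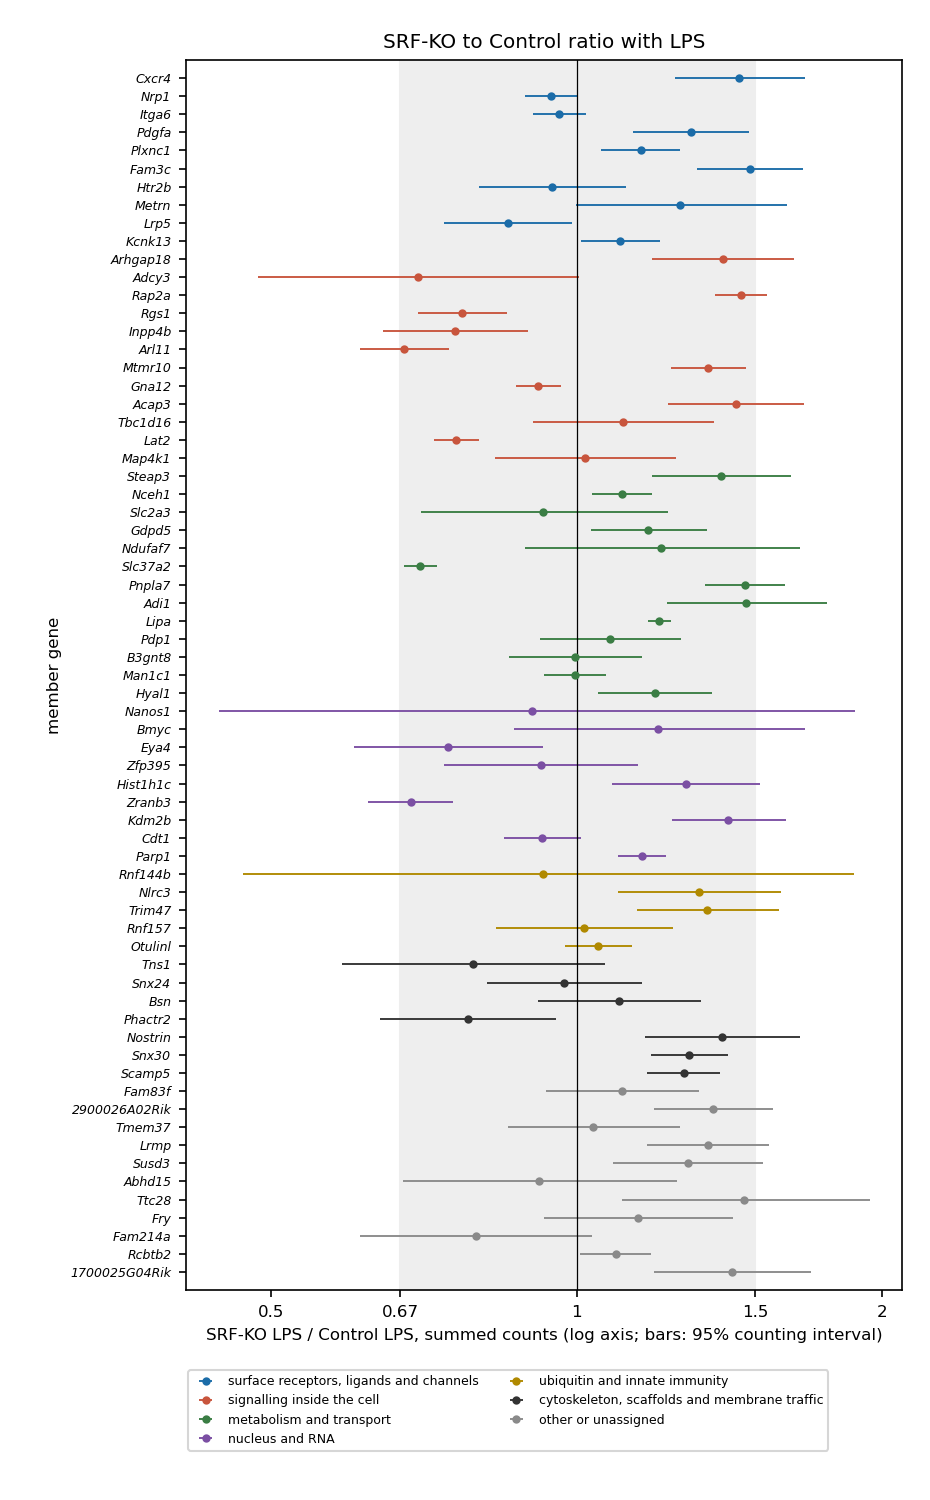
Points are 67 of the 68 members' SRF-KO LPS to Control LPS ratios of summed, scaled counts on a log axis, bars are 95% counting intervals, colour marks the role, and the shaded band spans 0.67 to 1.5. The intervals of 31 members reach past the band, and the longest are those of Nanos1 (0.444 to 1.88) and Rnf144b (0.469 to 1.88).

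Untreated levels per length were taken as CPM per kilobase of merged exons. On that scale the highest untreated members were Lipa (149), Slc37a2 (127), Lat2 (104) and Gna12 (77.6), and the lowest was Fry (0.545). In position, 10 members (14.7%) lay on chromosome 1, which holds 6.17% of the autosomal genes kept. 5 pairs of members lay within 1 Mb of each other. They were Tmem37 and Steap3 (117 kb apart), Trim47 and Rnf157 (209 kb), Zranb3 and Cxcr4 (485 kb), Hyal1 and Bsn (514 kb), and Pnpla7 and Bmyc (653 kb). Exons of 25 members overlap those of another gene, 9 on the same strand and 18 on the opposite strand. The strand setting of the counting was not stated in the labels. No share over all genes was taken for the pairs or the overlaps, so neither sets the members apart.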

How the data were processed

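RNA of 9 libraries (TruSeq stranded kit, per the labels' protocols) was processed by the authors with bcl2fastq 2.19, Trimmomatic, STAR 2.5.4b, featureCounts and edgeR on GRCm38, per the submitters' processing notes. The deposited values are raw counts per gene, per the file headers, with annotation release and strand setting not given in the sources used here. From these counts, genes were filtered with filterByExpr by group, scaled by TMM and averaged per group (edgeR 4.0.16, R 4.3.3). List genes that are no members were called with edgeR's quasi-likelihood test over all 9 libraries at a Benjamini-Hochberg adjusted p below 0.05, and the fit was tested on simulated data. DESeq2 1.42.0, other scalings, filters and bounds, a replicate block and leaving out each library were tried as alternatives. Totals of 15321839 to 24912173 counts set the counting error, and replicates of a group differed by more than counting noise (chi-square per degree of freedom 1.75 to 3.95).

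The members, functional lists and motifs were chosen with earlier results of these data known, and roles were assigned after the values were seen. The naming rule took 40 members: the 10 with the lowest LPS ratio, the 10 with the highest untreated CPM, up to 5 per functional list and those nearest each bound. The remaining members are named to account for them, except that 1 member, 1 gene outside a bound and 1 functional list are not reported here by name. For contrast it took up to 2 genes per list on each side of the window. Mcm6 and Pcna were named besides, for their place with library totals.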

Additional observations from a re-analysis of the deposited data

How the results depend on the processing

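The list of members moved most with its bounds and the scaling. With library totals alone, 118 genes met the rule, with 42 entirely above and 30 entirely below Control LPS in SRF-KO libraries. A window from 0.8 to its inverse gave 35 genes and one of 0.5 to 2 gave 123. A bound of 8-fold lower with LPS gave 22 and one of 3-fold gave 121. Bounds met in every pairing of libraries gave 23. DESeq2 size factors (64), no low-count filter (69), group medians (72) and floors of 5 (80) and 20 CPM (55) stayed within 1.5 times of 68. Without 1 library at a time, 63 to 75 genes met the rule, sharing at least 59 with the members, with 25 to 33 above and 10 to 18 below, the 18 without Control LPS replicate 2. Of 400 values of named members under alternatives, 324 moved by less than 1 SD, 75 moved further with library totals and 1 without the filter. Library totals turned the sign of 10 log2 SRF-KO to Control ratios with LPS: Nanos1 (-0.14 to 0.21), Rnf144b (-0.12 to 0.24), Tns1 (-0.31 to 0.04), Slc2a3 (-0.13 to 0.23), Nrp1 (-0.09 to 0.27), Itga6 (-0.06 to 0.30), Gna12 (-0.12 to 0.23), Cdt1 (-0.11 to 0.24), Lrp5 (-0.22 to 0.13) and Zfp395 (-0.13 to 0.23). Leaving out a library turned the sign of 7: Nanos1, Rnf144b, Slc2a3, Fam83f, Tmem37, Otulinl and Map4k1.

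Genes called with LPS numbered 9156 to 9531 without 1 library, and in SRF-KO 8548 to 9019. Library totals gave 2428 higher and 7835 lower with LPS, and 7059 higher and 2434 lower in SRF-KO. DESeq2 called 9124 and 8499. Replicate numbers did not pair the samples (9 correlations from -0.07 to 0.10, 0 over 0.1). A replicate block gave 9467 and 8919 calls, within 1.5 times of the fit without it.

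Limits: 36 members had under 100 counts in every Control LPS library, and untreated SRF-KO cells were not analysed here.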
